A study of Mus musculus with 8 samples.

Results

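The genes described here are the ferritin heavy and light chain genes Fth1 and Ftl1, the transferrin receptor gene Tfrc, and Ireb2 and Aco1, which encode the iron regulatory proteins IRP2 and IRP1. They were chosen by name as genes of cellular iron handling, and all 5 were among the 9875 genes present in each of the 3 gene tables, out of 10690 genes present in at least 1. The cells were NIH3T3, an established line of mouse embryonic fibroblasts. RNA was sequenced by QuantSeq FWD, whose reads lie near the poly(A) end but need not reach it. The reads were assigned to cleavage and polyadenylation sites (PASs) with MAAPER, which models the distance from read to PAS. Non-treated cells (NT) were compared with cells taken after 1 h in 250 µM sodium arsenite (AS), and with cells that, after the same treatment, recovered in normal medium, with RC4 and RC8 standing for 4 h and 8 h of recovery. Each condition was 1 library with 22.4 to 23.0 M reads on genes, and the same NT library served as the control in all 3 tables. A difference between libraries could therefore be set against counting error alone, and not against the spread between cultures. No P value is given. In bulk RNA, a lower number of cells carrying a transcript and less of it per cell cannot be told apart.

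Cells take up iron bound to transferrin through the transferrin receptor and keep the surplus inside ferritin, a shell of heavy chains, which oxidise iron, and light chains, which help it to mineralise. IRP1 and IRP2 adjust both ends of this system by binding a hairpin, the iron-responsive element (IRE), in target mRNAs when iron is scarce: an IRE in the 5′ UTR of a ferritin mRNA holds back translation, and the IREs in the 3′ UTR of the transferrin receptor mRNA protect it from decay. With enough iron, IRP1 carries an iron-sulfur cluster and works as the cytosolic aconitase, whereas IRP2 is degraded. Much of this control acts on translation and protein stability, neither of which a count of 3′ end reads measures.

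Matches to the IRE motif in these mRNAs are shown first, because IREs are what connects the 5 genes and because their place relative to the PASs decides whether a change in PAS use could remove them. The longest annotated protein-coding transcript of each gene (GENCODE vM1, mm9) was searched on the sense strand for a C, any 5 bases, the letters CAGTG and any base, with 5 base pairs, G-U pairs included, between the bases on either side of the loop. In the sequences below, the capitals mark the bulged C and the 6 bases of the loop, and T stands for U.
Fth1, 5′ UTR, chr19:10057222-10057251, plus strand: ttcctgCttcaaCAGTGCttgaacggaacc
Ftl1, 5′ UTR, chr7:52715148-52715177, minus strand: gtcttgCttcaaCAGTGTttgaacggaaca
Tfrc, 3′ UTR, chr16:32631305-32631334, plus strand: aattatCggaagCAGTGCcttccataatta
Tfrc, 3′ UTR, chr16:32631684-32631713, plus strand: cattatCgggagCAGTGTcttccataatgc
Tfrc, 3′ UTR, chr16:32631749-32631778, plus strand: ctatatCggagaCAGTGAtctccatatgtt
Tfrc, 3′ UTR, chr16:32631796-32631825, plus strand: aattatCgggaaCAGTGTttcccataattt
The motif was found once in each ferritin 5′ UTR and 4 times in the Tfrc 3′ UTR. It was not found in the Ireb2 or Aco1 transcript. The pairing rule is strict. Without it, the letters occurred 5 times in the Tfrc transcript, 5 times in that of Ireb2 and 1 time in that of Aco1. An IRE with other pairing can be missed, so the matches are not a full count of IREs. Across the annotation, 0.166% of 19854 genes held it in a 5′ UTR and 0.623% of 19915 genes in a 3′ UTR, and Tfrc was the 1 gene with 3 or more matches in a 3′ UTR. The 4 matches in Tfrc began 889, 1268, 1333 and 1380 nt after the coding sequence, upstream of the PAS of Tfrc at chr16:32632830, 2408 nt after the coding sequence. All reads of Tfrc were assigned to this PAS in every library, and no PAS upstream of the 4 matches was listed for Tfrc. The ferritin PASs lie in the last exon, more than the whole coding sequence away from the 5′ UTR motif.

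**Figure D1:**
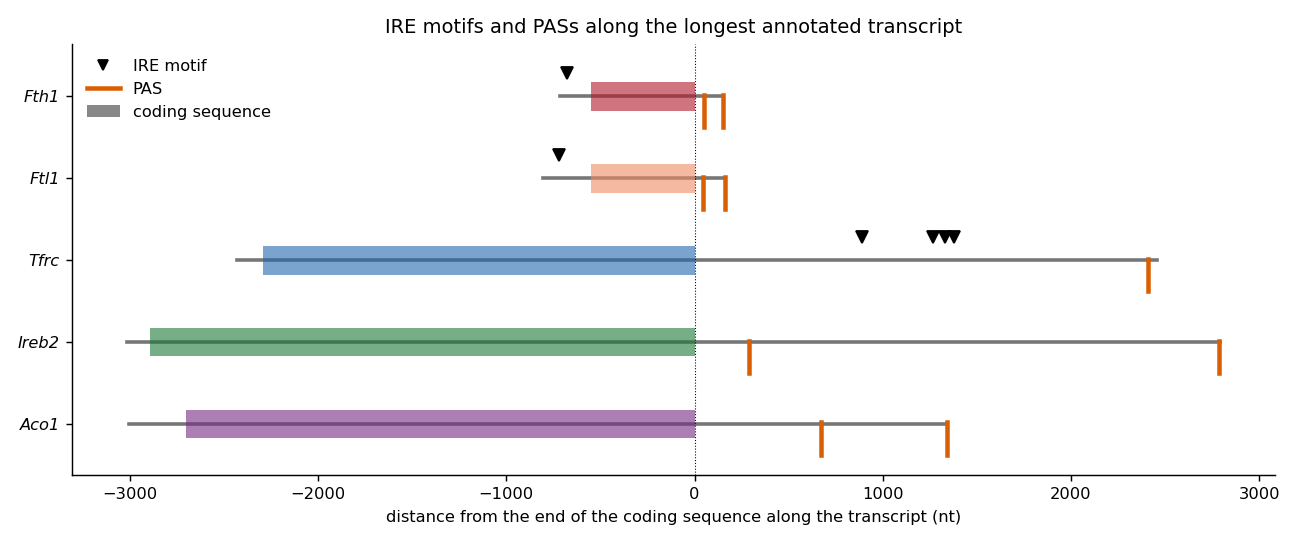
Map of the 5 transcripts, drawn to scale in nt from the end of the coding sequence (0), with the coding sequence as a box, UTRs as lines, IRE motifs as triangles and PASs as vertical bars. The ferritin motifs lie before the coding sequence, and the 4 motifs of Tfrc lie between the coding sequence and its PAS at 2408 nt.

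Fth1, on the plus strand of chromosome 19 (10057193 to 10059582 in mm9), encodes the heavy chain with the ferroxidase centre. Its level in NT was 2517 RPM (reads per 1000000 reads on genes; 95% Poisson interval 2496 to 2538) and 2845 in AS, and in recovery it was 4625 in RC4 and 5670 (5639 to 5701) in RC8. The 4 libraries were in the order of the time course as measured, and no intervals of neighbouring libraries overlapped. Over NT, the log2 ratio was 0.18 (0.16 to 0.19) in AS and 0.87 (0.86 to 0.89) in RC4, and by RC8 it was 1.17 (1.16 to 1.19), with the exact 95% interval of a ratio of 2 read numbers in parentheses. The RC8 value corresponds to 2.25-fold. With a call set at 1.5-fold, a log2 ratio of 0.58, Fth1 rose in RC4 and RC8 and was not called in AS.

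Ftl1 encodes the light chain and lies on the minus strand of chromosome 7 (52713314 to 52715254). It stood at 563.0 RPM (553.2 to 572.9) in NT and 658.9 in AS, and in recovery at 1213 in RC4 and 1341 (1326 to 1356) in RC8. The order of libraries was that of Fth1, again with no overlap between neighbours. Over NT, it was 1.17-fold in AS and 2.15-fold in RC4, and by RC8 2.38-fold (log2 ratio 1.25, interval 1.22 to 1.28), and the call was the same as for Fth1 in each. From AS to RC4, Fth1 and Ftl1 rose by 1.63-fold and 1.84-fold. From RC4 to RC8 the ratios were 1.23-fold and 1.11-fold, and neither was called.

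Ftl1 has copies elsewhere in the genome, which limits how surely its reads were placed. Of 7 windows of 50 bases in the 200 bases before its distal PAS, 4 occurred exactly at another place in mm9, with up to 7 places for a window, whereas none of the windows before either PAS of Fth1 or Ireb2, the PAS of Tfrc or the proximal PAS of Aco1 did. The tables also list Gm22133 at the same distal PAS as Ftl1, with 98.4% to 99.0% as many reads, so reads at that site were counted under both names. Gm15590, an annotated pseudogene on chromosome 17, contains 78.3% of the 25-base words of the Ftl1 transcript and had 16.0% to 17.0% as many reads as Ftl1 in each library. Its level, 94.0 RPM in NT and 112 in AS, then 194 in RC4 and 220 in RC8, followed the same order. Ftl1-ps1, on chromosome 13, contains 67.4% of those words and stood at 46.62, 48.70, 58.14 and 59.01 RPM in NT, AS, RC4 and RC8, of which NT and AS overlapped, as did RC4 and RC8. Its log2 ratio of 0.34 over NT in RC8 was below the call. Which locus gave rise to the reads was not tested.

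**Figure D2:**
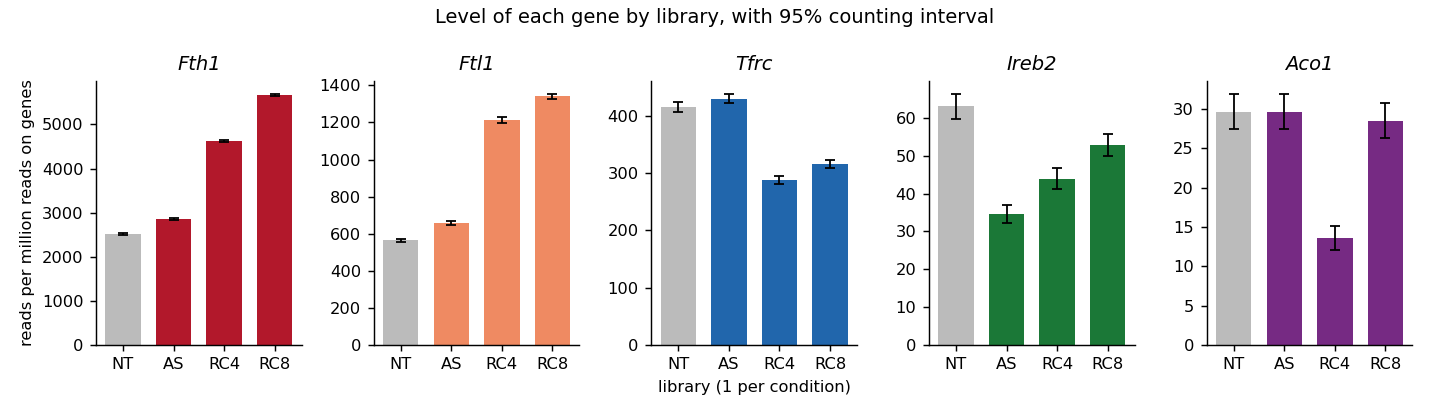
Level of each gene (bars, RPM, each axis from 0) in the 1 library of each condition, with the 95% Poisson interval, which covers counting error. As measured, Fth1 and Ftl1 are highest in RC8, Tfrc is lowest in RC4, Ireb2 is lowest in AS, and Aco1 is low in RC4 alone. Relative to the median gene, Ftl1 is highest in RC4, Fth1 is nearly level in RC4 and RC8, and Tfrc is lowest in RC8.

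Tfrc, on the plus strand of chromosome 16 (32609006 to 32632880), encodes the receptor that brings transferrin-bound iron into the cell. Its level was 414.9 RPM (406.5 to 423.4) in NT and 430.0 (421.4 to 438.6) in AS, against 288.2 (281.3 to 295.2) in RC4 and 315.5 (308.3 to 322.9) in RC8. The separate intervals of NT and AS overlapped, and both recovery libraries were below them. Over NT, its log2 ratio was 0.05 in AS (0.01 to 0.09, just above no change), and it was -0.53 in RC4 and -0.40 in RC8. Tfrc was thus 1.44-fold lower in RC4 than in NT, short of the call. Against AS it was 1.49-fold lower in RC4 (log2 ratio -0.58, interval -0.62 to -0.53), at the edge of the call.

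Ireb2, on the plus strand of chromosome 9 (54711562 to 54760341), encodes IRP2. It had 63.14 RPM (59.90 to 66.50) in NT and 34.58 (32.19 to 37.10) in AS, then 43.90 (41.22 to 46.70) in RC4 and 52.83 (49.90 to 55.89) in RC8. No 2 libraries overlapped, and AS was lowest. Ireb2 fell in AS by 1.83-fold (log2 ratio -0.87, with an upper interval limit of -0.74). The ratios over NT of -0.53 in RC4 and -0.25 in RC8 were not called, and neither were the steps from AS to RC4 (0.34) and from RC4 to RC8 (0.27).

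Aco1, on the plus strand of chromosome 4 (40090114 to 40146042), encodes IRP1, the protein that also serves as cytosolic aconitase. Its level was 29.62 RPM (27.42 to 31.95) in NT and 29.63 in AS, against 13.54 (12.07 to 15.13) in RC4 and 28.48 (26.34 to 30.75) in RC8. NT, AS and RC8 overlapped, and RC4 was apart from all of them. Aco1 fell in RC4 by 2.19-fold against NT (log2 ratio -1.13, interval -1.33 to -0.94) and by 2.19-fold against AS, and from RC4 to RC8 it rose by 1.07 (0.88 to 1.27) on the log2 scale. This gene had the fewest reads of the 5, 310 in RC4 and 669 in NT. The lowest level of Ireb2 was therefore in AS and that of Aco1 in RC4, with Aco1 in AS at a log2 ratio over NT of 0.00 (-0.16 to 0.16) and Ireb2 in RC4 at -0.53 (-0.65 to -0.41).

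These changes were read against those of all genes in the same pair of libraries. In AS, 0 of the 5 genes were called higher and 1 lower (Ireb2), where 1.88% of all 10452 genes were called higher and 11.4% lower. The Ireb2 ratio in AS was below that of all but 4.98% of genes. In RC4, 2 of the 5 were called higher (Fth1 and Ftl1), beside 8.04% of 10081 genes, and 1 lower (Aco1), beside 31.8%. In RC8, 2 of the 5 were called higher, again the ferritin genes, beside 11.3% of 10441 genes, and 0 lower, beside 11.9%. The Fth1 ratio was above that of 95.4% of genes in RC4 and 98.2% in RC8, and the Ftl1 ratio above that of 97.0% and 98.5%. Between treated libraries, 2 of the 5 were called higher from AS to RC4, beside 12.5% of 9940 genes, and 1 lower (Aco1), beside 26.6%. From RC4 to RC8, 1 was called higher (Aco1), beside 30.6% of 9972 genes, and 0 lower, beside 6.59%.

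The RC4 library differed from the others in its typical gene, whose median log2 ratio was -0.30 over NT and -0.22 over AS, and RC8 over RC4 had a median of 0.26. Relative to that median, the RC4 ratios over NT were 1.18 for Fth1, 1.41 for Ftl1, -0.23 for Tfrc, -0.23 for Ireb2 and -0.83 for Aco1. The ferritin genes and Aco1 kept their side of the call, and Tfrc and Ireb2 were closer to the typical gene than to a 1.5-fold difference. With scaling by the trimmed mean of M values (TMM), which sets the typical gene near 0, 14.6% of all genes were called higher and 18.0% lower in RC4 against NT, 17.8% higher and 17.2% lower in RC4 against AS, and 19.0% higher and 13.6% lower in RC8 against RC4. The step of Ftl1 from RC4 to RC8 was 0.14 as measured and -0.12 relative to the median gene, so its direction depends on the scaling, and that of Tfrc was 0.13 and -0.13. The same step was 0.29 and 0.03 for Fth1 and 0.27 and 0.01 for Ireb2, so relative to the median gene RC4 and RC8 were nearly level in both. By the ratios over NT relative to the median gene, Fth1 was at 1.18 in RC4 and 1.17 in RC8. Ireb2 was at -0.23 and -0.26, and Tfrc at -0.23 and -0.40.

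**Figure D3:**
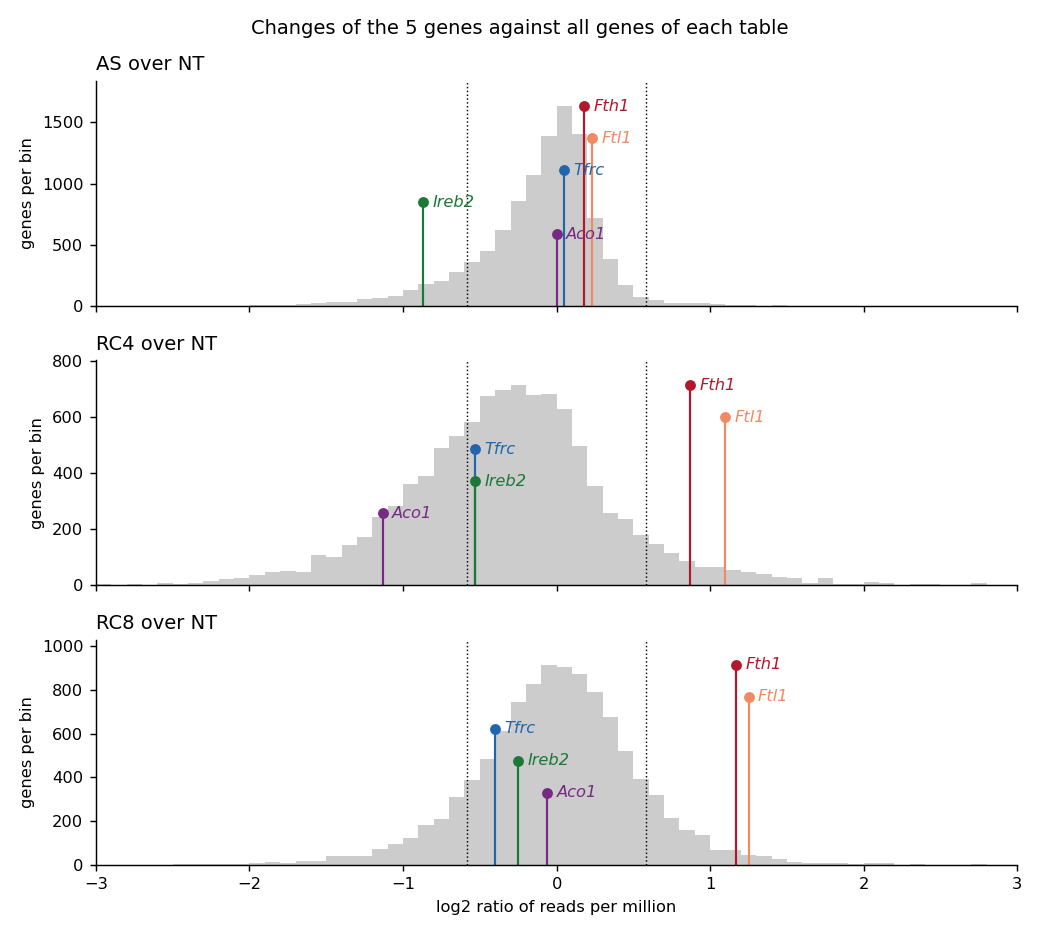
Log2 ratio of RPM over NT for all genes of each table (grey, genes per bin of 0.1) with the 5 genes marked at their own ratio; marker heights carry no value and dotted lines show 1.5-fold. Fth1 and Ftl1 lie in the right tail in RC4 and RC8, Ireb2 lies in the left tail in AS, and Aco1 does so in RC4.

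The genes other than Tfrc had alternative PASs, all in the last exon, and the 30 bases ending at the PASs of Ireb2 and the ferritin genes are shown because these are the sites whose shares are compared. Capitals mark the poly(A) signal AATAAA, the hexamer read by the cleavage machinery. A signal (AATAAA or ATTAAA, same strand) was searched in the 40 bases before the PAS, and 52.9% of all 18042 PASs of 3′-most exons had one.
Ireb2 proximal PAS, chr9:54757810-54757839, plus strand: aacattttgtaAATAAAgacagaatttgaa
Ireb2 distal PAS, chr9:54760306-54760335, plus strand: ttatttttAATAAAgaaaattgtattatca
Fth1 proximal PAS, chr19:10059454-10059483, plus strand: tgactttactggtcactgaggcagtgcatg
Fth1 distal PAS, chr19:10059554-10059583, plus strand: atttcttcaAATAAAgaattttggtaccca
Ftl1 proximal PAS, chr7:52713434-52713463, minus strand: cttccaaggggctcccccctctgctctgca
Ftl1 distal PAS, chr7:52713313-52713342, minus strand: aagtaaaAATAAAgctttttgagacagcag
Both PASs of Ireb2 and the distal PAS of each ferritin gene had AATAAA, and the proximal PASs of the ferritin genes, 51 and 43 nt after the coding sequence, had neither hexamer. In Aco1, both PASs had ATTAAA, and in Tfrc neither hexamer was found.

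Ireb2 showed the largest shift of the 4 in percentage points. Its PASs are 2496 nt apart, 291 and 2787 nt after the coding sequence. The proximal PAS took 9.10% of the reads in NT (95% Wilson interval 7.73 to 10.7) and 13.8% (11.5 to 16.4) in AS, then 20.7% (18.3 to 23.3) in RC4 and 12.1% (10.4 to 14.1) in RC8. The share was higher than in NT in all treated libraries, with overlapping Wilson intervals for RC8, and RC4 was apart from the other treated libraries. The difference from NT was 4.70 percentage points in AS (Newcombe's 95% interval 1.92 to 7.63), 11.6 (8.72 to 14.6) in RC4 and 2.98 (0.617 to 5.37) in RC8. As reads, the proximal isoform went from 130 in NT to 208 in RC4 (5.77 to 9.09 RPM, 1.57-fold higher), and the distal isoform from 1299 to 797 (57.6 to 34.8 RPM, 1.66-fold lower). In AS, the distal isoform was 1.92-fold lower than in NT, and the proximal one had 107 reads against 130, with a log2 ratio of -0.27 (-0.65 to 0.11).

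Aco1 was cleaved mostly at the proximal of its PASs, 671 and 1344 nt after the coding sequence. The distal PAS took 7.66% (5.85 to 9.88) of the NT reads and 4.98% (3.56 to 6.89) of those of AS, then 1.95% (0.890 to 4.16) in RC4 and 3.09% (1.99 to 4.67) in RC8. These shares stand for about 51, 33, 6 and 20 reads. RC4 and RC8 were below NT and overlapped each other. The difference from NT was -5.71 points (-8.17 to -2.85) in RC4. The proximal isoform alone went from 27.4 to 13.3 RPM in RC4, so the lower level of Aco1 there did not come from the distal isoform only. In the 200 bases before the distal PAS, 1 of 7 windows of 50 bases was repeated at up to 41 places in mm9, and its part in the distal share was not tested.

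In the ferritin genes the PASs are close together, 100 nt apart in Fth1 and 121 nt in Ftl1. MAAPER splits reads between such sites by a model of read distance, and the intervals do not include the error of that model. The distal PAS of Fth1 took 46.4% of the NT reads and 44.5% of those of AS, then 47.0% in RC4 and 41.2% in RC8. That of Ftl1 took 58.2%, 61.7%, 59.0% and 68.2%. In both genes RC4 was close to NT and RC8 was farthest from it, in opposite directions: -5.10 points (-5.59 to -4.61) in Fth1 and 9.70 points (8.70 to 10.7) in Ftl1, each against the NT share of the RC8 table. Among the 525 genes whose pair of PASs lay 50 to 150 nt apart in that table, 60.4% moved by at least 5 points, and the quartiles of the distal difference were -5.10 and 8.70 points. For Gm22133, which shares reads with Ftl1 but has its proximal PAS 26 nt farther from the distal one, the distal share was 83.4% in NT and 94.0% in RC8. These are largely the same reads, so this is not a separate measurement.

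The relative expression difference in the 3′ UTR, REDu, is the log2 ratio of distal over proximal reads in the treated library minus that in NT, and a negative value stands for a shift to the proximal PAS. It was computed here from the deposited fractions. In Ireb2, REDu for AS was -0.68 ± 0.20 (counting error), for RC4 -1.38 ± 0.17 and for RC8 -0.46 ± 0.18. In Aco1 it was -0.66 ± 0.33, -2.06 ± 0.63 and -1.38 ± 0.39. Both IRP genes had a negative REDu in every treated library. The study reports a negative median REDu in AS, RC4 and RC8 among genes with a significant change in PAS use. The direction is therefore not particular to the IRP genes. In Fth1 it was -0.11 ± 0.02, 0.02 ± 0.02 and -0.30 ± 0.01, and in Ftl1 0.21 ± 0.04, 0.06 ± 0.03 and 0.61 ± 0.03. With a call set at 10 percentage points for a PAS, 0 of the 4 genes were called in AS, beside 15.3% of the 5287 genes with more than 1 PAS, 1 (Ireb2) in RC4, beside 29.1% of 5343, and 0 in RC8, beside 27.0% of 5357.

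**Figure D4:**
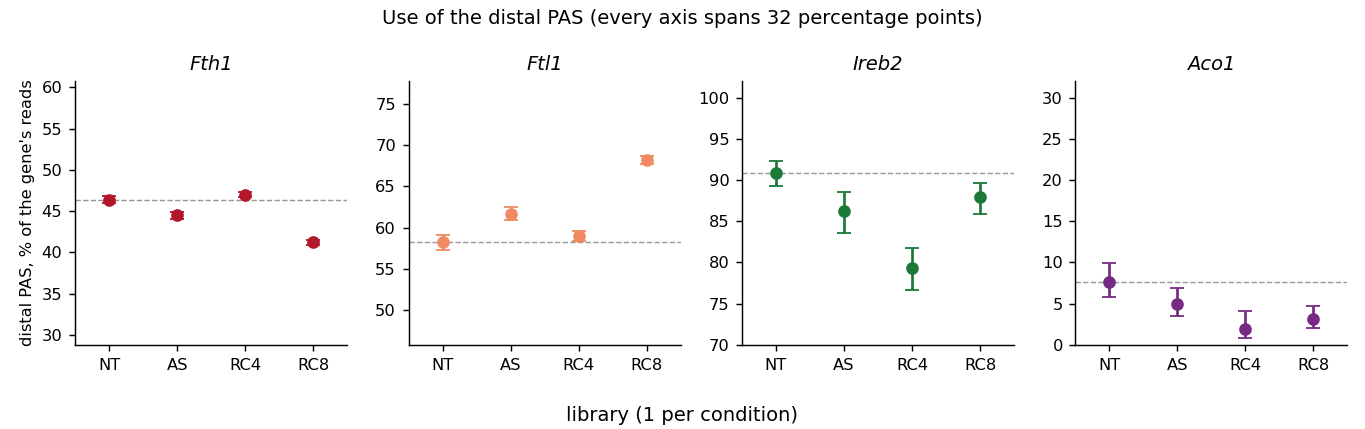
Share of each gene's reads at its distal PAS in the 1 library of each condition (points; bars are 95% Wilson intervals, dashed line the NT share of the AS table). Axes start at different values but all span 32 percentage points. Ireb2 is lowest in RC4, Aco1 is below NT in both recovery libraries, and Fth1 and Ftl1 move apart in RC8.

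The genes most like each member over the 4 libraries were found by the root mean square distance of log2 RPM, centred on the mean of each gene, among 7815 genes with at least 200 reads in every library. With 1 library per condition and 4 points this is a description. Nearest to Fth1 were Blvrb (distance 0.027), 5031439G07Rik (0.040) and Prdx1 (0.041), of which Blvrb encodes biliverdin reductase B and Prdx1 a peroxiredoxin. Ftl1 was 0.086 from Fth1, and 10 genes were nearer to Fth1 than Ftl1 was. Nearest to Ftl1 were Gm22133 (0.003) and Gm15590 (0.033), described above, and Glmp (0.031), a lysosomal membrane protein gene. For Tfrc they were Noc4l, Suclg2 and Zbtb8os (0.014 to 0.019), for Ireb2 Togaram1, Apaf1 and Scaf11 (0.028 to 0.052), and for Aco1 Commd5, B3galt6 and Pask (0.008 to 0.038). Profiles like those of Tfrc and Aco1 were common: 850 genes lay within 0.15 of Tfrc and 347 within that distance of Aco1, against 57 for Fth1, 40 for Ftl1 and 172 for Ireb2. Ireb2 and Aco1 were not alike, with a distance of 0.526 and 6574 genes nearer to Ireb2 than Aco1 was.

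The rest of iron and haem metabolism was followed in lists of 73 genes, of which 14 were in no table. Those 14 include Slc40a1, the iron exporter ferroportin, Trf, which encodes transferrin, Tfr2, and Hamp, the gene of the hormone hepcidin. In AS, 2 of 58 listed genes were called higher and 2 lower, and their median log2 ratio was 0.00, beside -0.04 over all genes. In RC4, 3 of 56 were higher and 20 lower, with a median of -0.32 beside -0.30, and in RC8, 6 of 59 were higher and 5 lower, with a median of -0.02 beside 0.01. With TMM scaling the RC4 counts were 6 higher and 8 lower. The shares of all genes called in these comparisons, given above, were 1.88% higher and 11.4% lower in AS, 8.04% and 31.8% in RC4 (14.6% and 18.0% with TMM scaling), and 11.3% and 11.9% in RC8. The median of the pooled lists thus lay close to that of all genes at each time. Single lists lay farther off, but hold few genes. In AS, the median of the other mRNAs described with an IRE was -1.54 (3 genes). In RC4 it was -0.77 for uptake (6 genes) and 0.14 for haem breakdown and transport (7 genes). In RC8 it was -0.94 for export (2 genes).

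Among uptake genes, 6 of 11 were listed, of which 4 were called lower in RC4, beside 31.8% of all genes, and 2 in RC8, beside 11.9%. With TMM scaling 3 were lower and 1 higher in RC4, beside 18.0% and 14.6% of all genes. Steap2, a gene of the STEAP family of metal reductases, stood at 99.7 RPM in NT and 29.2 in RC4 (log2 ratio -1.77) and at 44.9 in RC8 (-1.15). Steap1, of the same family, was at -0.42 in RC4 and fell in RC8 (-1.05). Steap3, also of this family, went the other way in RC4, at 0.35, or 0.65 relative to the median gene, which is above the call. It was at 0.17 in RC8. Slc11a2, which encodes DMT1, the transporter that moves iron out of the endosome after Tfrc has brought it in, fell in RC4 from 70.3 to 37.3 RPM (-0.91) and was at 64.2 RPM in RC8 (-0.13), which was not called. Both listed export genes, Heph and Cp, which encode the ferroxidases hephaestin and ceruloplasmin, fell in RC8 (-0.59 and -1.29), beside 11.9% of all genes, and were not called in AS or RC4. Heph was at the edge of the call, and with the study's read numbers 4 in place of 5 iron genes were called lower in RC8. None of the 3 genes of IRP turnover was called in any comparison with NT, and Fbxl5, whose protein directs IRP2 to degradation, was at -0.27, -0.22 and -0.23.

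Of the ferritin partners, 3 of 4 were listed. Pcbp1, an iron chaperone that delivers iron to ferritin, and Ncoa4, the receptor for autophagy of ferritin, were both at -0.61 in RC4 and were called lower, or at -0.31 relative to the median gene, which is below the call. Pcbp2 was not called, and none of the 3 was called higher than NT in any library. From RC4 to RC8 Ncoa4 rose by 0.88 (0.71 to 1.06) on the log2 scale, and it was at 0.31 over NT in RC8, which was not called.

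Haem breakdown releases iron, and Hmox1, the haem oxygenase gene, had the largest change of the iron lists. It stood at 27.6 RPM in NT and 57.8 in AS, then at 888 in RC4 and 101 in RC8, with log2 ratios over NT of 1.07, 5.01 and 1.87. RC4 was by far the highest library, and from RC4 to RC8 Hmox1 fell by 3.13 on the log2 scale while Fth1 (0.29) and Ftl1 (0.14) were not called. Blvrb stood at 49.8 RPM in NT and 54.9 in AS, and it rose to 90.5 in RC4 and 115 in RC8. Its log2 ratios of 0.91 and 1.27 are against the NT level in those comparisons, 48.0 and 47.9 RPM. Abcb10, a mitochondrial transporter gene, fell in RC4 (-1.33). In haem synthesis, 1 of 5 listed genes was called lower in RC4, beside 31.8% of all genes, and 2 of 6 higher in RC8, beside 11.3%. Alad fell in RC4 (-0.69), and Fech, which inserts the iron, rose in RC8 (0.69). Alas1 also rose in RC8 (1.32), from 176 reads in NT to 447. Alad was at -0.39 in RC4 relative to the median gene, below the call.

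All 18 genes of mitochondrial iron and iron-sulfur clusters were listed, with 1 higher in AS (2 with TMM scaling), 8 lower in RC4, beside 31.8% of all genes, and 1 lower in RC8. With TMM scaling 2 were higher and 3 lower in RC4, beside 14.6% and 18.0% of all genes. Iscu, the scaffold on which clusters are built, fell in RC8 (-1.09). In RC4 it was called lower at -0.70, but was at -0.39 relative to the median gene. Bola3 (-0.72) and Iba57 (-0.68), cluster assembly factors, were likewise called in RC4, but relative to the median gene they were at -0.42 and -0.38. Slc25a28, the mitochondrial iron importer mitoferrin 2, rose in AS (0.65). In the cytosolic pathway 4 of 10 listed genes fell in RC4, beside 31.8% of all genes (1 with TMM scaling, beside 18.0%), among them Ciao1 (-1.05). In RC8 2 of 11 rose, beside 11.3% of all genes, namely Narfl, now called Ciao3 (1.15), and Nubp2 (0.72). Of other mRNAs described with an IRE, Cdc42bpa, a kinase gene, fell in AS from 48.0 to 16.0 RPM (-1.59) and was at 37.4 RPM in RC4. Ireb2 and Cdc42bpa thus both had their lowest level in AS.

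**Figure D5:**
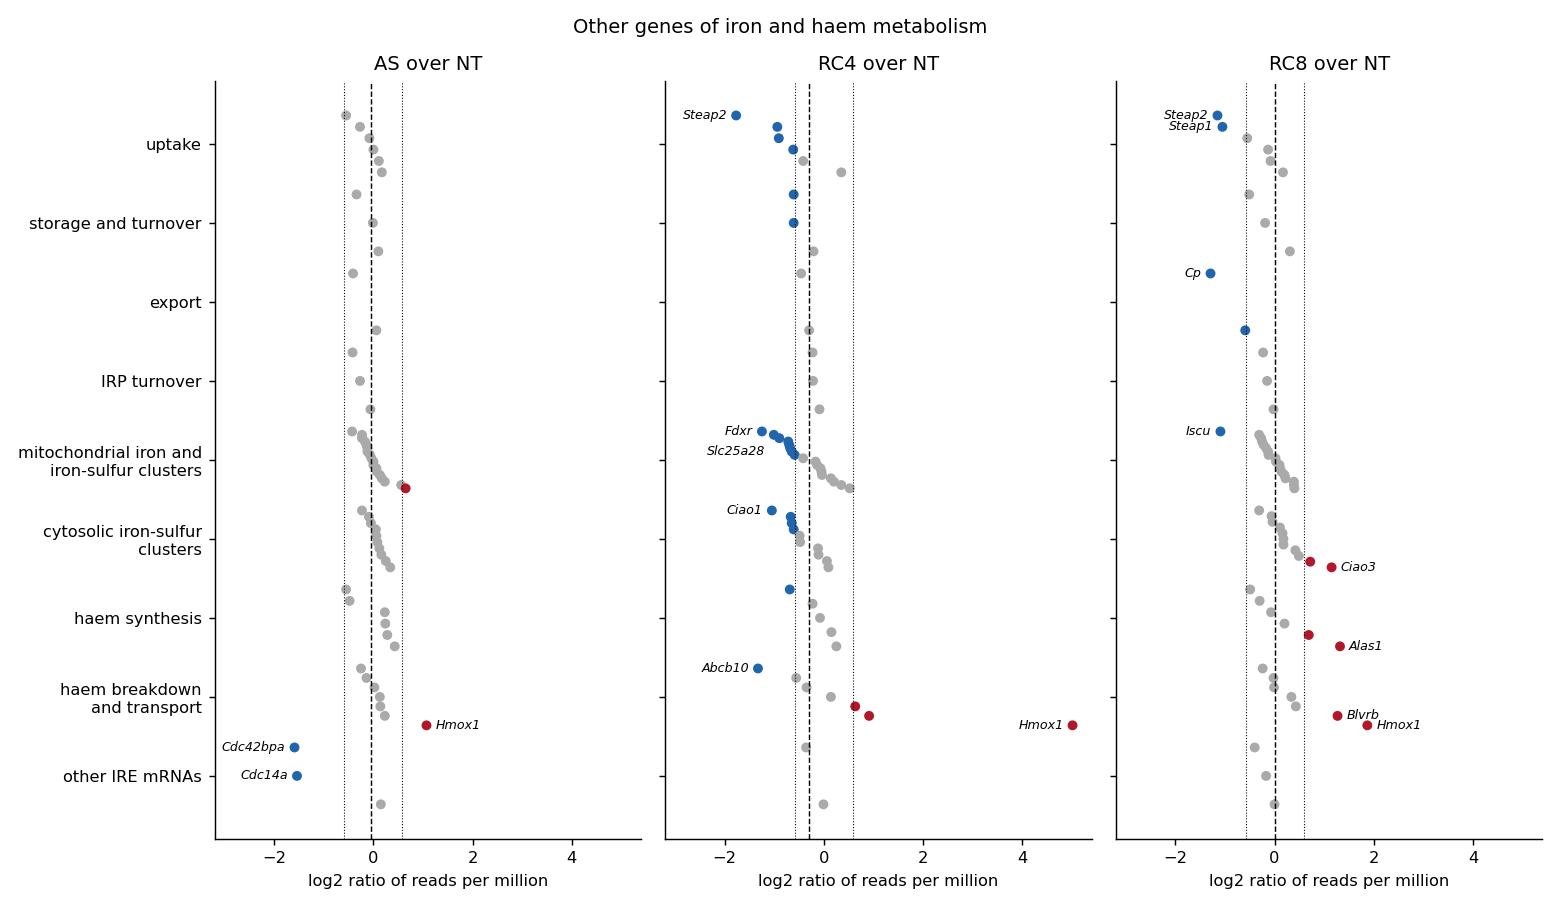
Log2 ratio of RPM over NT for the listed genes of iron and haem metabolism by list (points; red at least 1.5-fold higher, blue at least 1.5-fold lower, grey between; dashed line the median of all genes, dotted lines 1.5-fold). Names are printed at 2-fold or more. The RC4 points are shifted to the left with the median of all genes, and Hmox1 at 5.01 stands apart.

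The labels were checked against known genes. All 8 fibroblast markers were in the tables, and none of 7 markers of other cell types was. Some fibroblast markers were lower in recovery, with log2 ratios over NT in RC4 and RC8 of -2.18 and -1.34 for Pdgfrb, -1.45 and -1.79 for Col3a1 and -0.84 and -1.10 for Col1a2, and -0.85 in RC8 for S100a4. Of 7 genes known to respond to arsenite or heat stress, 4 were listed, and all 4 were higher than NT in each treated library, with log2 ratios in AS, RC4 and RC8 of 1.16, 3.07 and 2.12 for Mt1 and 1.25, 3.45 and 1.90 for Mt2, beside those of Hmox1. Hspa1b, a heat shock protein gene, had 955 reads in NT and 4890, 54238 and 2079 in the treated libraries in the same order.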

How the data were processed

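QuantSeq FWD libraries of 4 conditions were used, 1 per condition. According to the methods, the authors trimmed reads with bbmap, mapped them to mm9 with STAR (version 2.5.2a in the submitters' processing notes) and assigned them with MAAPER to PASs from PolyA_DB v3, keeping genes with at least 50 reads and PASs of at least 5%. The counts per gene were deposited as whole numbers in 2 columns per library, which were added here. What the 2 columns stand for is not given in the sources used here. The first condition of each table was taken as NT, the condition that all 3 comparisons share, and the second as the treated library that the table is for. Per PAS, the authors deposited the fraction of the gene's reads. The deposited tables also hold the authors' own comparisons (P values and the RLD and RED scores), which were not used. QuantSeq REV libraries were not analysed here.

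Counts were divided by the reads on all genes of the table (22.4 to 23.0 M) to give RPM. NT levels of the 5 genes and of the Ftl1 copies are those of the AS table. NT levels of isoforms and of other genes are those of the comparison they are given with. No count test was possible with 1 library per condition. Intervals (95%; exact Poisson, exact conditional binomial, Wilson, Newcombe) cover counting error only, and reads carry no molecular identifiers. Genes were called at 1.5-fold, and PASs at 10 percentage points. The 5 genes, the gene lists and the tests were chosen with earlier results of these data known. Other iron genes were named if called against NT with at least 200 reads in both libraries, at most the 10 largest per comparison. Genes with fewer reads, and Steap3, Pcbp1, Pcbp2, Ncoa4 and Fbxl5, were named for their role. For each of the 5 genes, the 3 nearest genes were named. Calls and intervals were run on simulated counts that held counting error alone. This checks the computation, and it cannot show how calls hold between cultures. Alternatives were TMM and median-ratio scaling, the study's read numbers, each count column, NT averaged over the tables, a minimum of 200 reads, 2-fold and 5 points. Sequences came from NCBIM37 (mm9) and GENCODE vM1. Python 3.11.15, pandas 2.3.3, scipy 1.17.1, pysam 0.24.0 and edgeR 4.0.16 (TMM factors) were used.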

Additional observations from a re-analysis of the deposited data

Results flagged for a closer look

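Slc25a28 was at a log2 ratio over NT of 0.65 in AS and -1.01 in RC4, with 384 reads in NT, 598 in AS and 194 in RC4, so that it was called in opposite directions at these times. Narfl (Ciao3) was at -0.61 in RC4 and 1.15 in RC8, with 410 reads in NT, 273 in RC4 and 926 in RC8, and at -0.31 in RC4 relative to the median gene, which is below the call. Neither difference between times was tested, because each condition was 1 library.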

How the results depend on the processing

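No paired analysis was possible because each condition had 1 library, and for the same reason no replicate could be left out. Among the 5 genes, every call at 1.5-fold kept its direction and its side of the call under both other scalings, the study's read numbers, either count column, a minimum of 200 reads and the averaged NT library. Most of these settings could move only ratios close to the call. The NT reads of the 5 genes were nearly the same in each comparison, and both count columns belong to 1 library. The study's read numbers moved ratios by -0.02 to 0.05. None of the settings stands in for a second culture. The log2 ratio of Fth1 over NT ranged from 0.85 to 1.18 in RC4 and from 1.16 to 1.19 in RC8, that of Ftl1 from 1.08 to 1.41 and from 1.24 to 1.27, that of Ireb2 in AS from -0.92 to -0.81, and that of Aco1 in RC4 from -1.33 to -0.83. Tfrc in RC4 against AS crossed the call with the study's read numbers, with a minimum of 200 reads and with the first count column, giving 2 genes called lower in place of 1. With a call at 2-fold, the 5 genes gave 0 lower in AS, 1 higher in RC4 against NT and 0 higher in RC4 against AS. With 5 percentage points, 2 genes had a PAS called in RC4 (Ireb2 and Aco1) and 2 in RC8 (Fth1 and Ftl1). In RC8, 60.4% of the 525 genes with close PAS pairs, described above, moved by at least 5 points. No share of all genes is given at 2-fold or at 5 points, so counts at these settings have no background to be read against. Of 56 other iron genes, 6 were higher and 17 lower in RC4 against AS as measured, beside 12.5% and 26.6% of all genes. In RC8 against RC4, 18 were higher and 4 lower, beside 30.6% and 6.59%. TMM and median-ratio scaling each gave 6 higher and 8 lower in RC4 against NT and 8 lower in RC4 against AS, because they set the typical gene near 0. With TMM scaling, 14.6% of all genes were higher and 18.0% lower in RC4 against NT, and 17.2% lower in RC4 against AS. In AS the first count column gave 1 higher and 1 lower, and a minimum of 200 reads gave 1 lower. The study's read numbers gave 2 lower in RC8 against RC4. At 2-fold there was 1 higher in AS, 1 higher and 5 lower in RC4 against NT, 2 higher and 5 lower in RC4 against AS, and 8 higher and 1 lower in RC8 against RC4. Where no construction of the setting shows it, the cause was not tested. Depth limits the distal isoform of Aco1, with 6 reads in RC4.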
